A study of Saccharomyces cerevisiae with 24 samples.

Results

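The comparison described here sets the acetyl-mimic strain Sfp1-K655/657Q grown with raffinose against the same strain grown in YPD. It covers every gene with a mean TPM (transcripts scaled by length and to a fixed total per library) of at least 1, which left 6357 of the 6612 transcripts of the table, and it rests on 2 K655/657Q libraries in raffinose and 2 in YPD, out of 24 RNA-seq libraries in all. The study asked how acetylation of the yeast transcription activator Sfp1 by the NuA4 acetyltransferase complex bears on ribosomal gene expression when the carbon source changes. The acetyl-mimic strain carries SFP1-K655Q-K657Q-MYC::KanMX, that is, glutamine in place of the lysines K655 and K657. The strains used for context carry SFP1-K655R-K657R-MYC::KanMX, with arginine at both positions (K655/657R), or the MYC-tagged SFP1 with neither change (WT). By their labels all of them share the alleles trp1-1, ura3-1, ade2-1, can1-100 and his3-11,15 and a mutant leu2 allele. MYC-tagged Sfp1 and the KanMX marker are also in the WT. The paper's strain table instead lists the MYC-tagged KanMX strains in a parent with HIS3 and TRP1 deletions and no ade2 or can1 allele. Which of these backgrounds applies was not tested. YPD holds 2% glucose. For the raffinose samples, cells of a YPD culture in exponential phase were pelleted, washed with water and kept for about a generation in medium with 2% raffinose as its only carbon source, so the medium and the transfer cannot be told apart. These libraries also serve the study as the 0 min samples of a glucose pulse. The labels do not say that replicates came from separate cultures, nor how many clones of a strain were used, so the p-values may measure technical spread only.

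Budding yeast takes up glucose in preference to other sugars, ferments it, and keeps the genes for other sugars, for respiration and for glucose synthesis repressed while it lasts. Raffinose is a trisaccharide that the cell cannot import well: invertase, secreted into the cell wall, releases fructose from it, and the cell then lives on a slow supply of hexose. Sfp1 is a zinc-finger activator of the ribosomal protein (RP) genes and of the ribosome biogenesis (RiBi) genes, whose products assemble ribosomes in the nucleolus, and a lysine changed to glutamine resembles acetyl-lysine, while arginine keeps the charge but cannot be acetylated.

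The mutated codons are shown because they define the strain. In the R64 reference, codons 648 to 664 of SFP1 (YLR403W, 683 residues) lie at chrXII:927509-927559 on the forward strand, near the end of the coding sequence, and the codons of K655 and K657 are in capitals, as the unmutated reference has them:
SFP1: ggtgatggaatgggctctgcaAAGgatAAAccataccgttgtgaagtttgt
SFP1 itself had 18.2 and 18.9 scaled TPM in raffinose, against 16.5 and 14.7 in YPD, where scaled TPM are TPM divided by a size factor per library. Its change of 0.24 ± 0.07 (log2 ± SE) stayed under the 1.5-fold limit, although the raffinose libraries were both above the YPD libraries. Kallisto counts reads over the whole transcript, so these values do not tell the mutated allele from the reference allele.

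The depth of the libraries is unknown, because each one sums to 1000000 TPM. The K655/657Q libraries had 6478 transcripts above 0 in each raffinose library and 6458 and 6467 in YPD, and the root mean square gap between the replicates of a medium, in log2 units, was 0.20 for raffinose and 0.22 for YPD. Mating type genes fitted a MATa strain: STE2, the alpha-factor receptor, had 124 and 108 TPM in raffinose and 272 and 308 in YPD, while STE3, the a-factor receptor, had 9.22 and 8.49 TPM in raffinose and 4.11 and 5.25 in YPD. HIS3, TRP1 and HYP2 were listed at 0 in all libraries, and since HYP2 encodes a translation factor that every cell uses, a listed 0 alone does not settle the allele. The other marker genes, ADE2, LEU2, URA3 and CAN1, were above 0, with ADE2 at 23.9 and 23.6 TPM in raffinose and 71.8 and 89.6 in YPD. Whether these values come from deletions or from the alleles in the labels was not tested. RP transcripts took 24.8% and 24.6% of all TPM in raffinose, against 32.6% and 31.8% in YPD. A share lost by such abundant transcripts raises all others in TPM, and this is the reason for the size factors. With TPM as deposited, the median change over all genes was 0.19 on the log2 scale, with ACT1 as the unit 0.12 and with upper quartile scaling 0.05, against 0.00 in the values below.

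Of the 6357 genes, 1308 (20.6%) changed between raffinose and YPD in K655/657Q at an adjusted p under 0.05 and at least 1.5-fold, 729 of them up (11.5%) and 579 down (9.11%). The test was limma over all genes, with Benjamini-Hochberg adjustment, and every adjusted p below comes from it. For 1 gene taken alone, an exact permutation of 2 libraries against 2 cannot give a p below 0.333. Without the limit on the fold change 3323 genes (52.3%) passed. The raffinose and YPD libraries did not overlap for 4821 genes (75.8%). The balance of the calls moved with the scaling, from 55.7% up in the values used here to 72.4% up after scaling to ACT1 and 80.9% up for TPM as deposited. RNA came from whole cultures, so fewer cells with a transcript and less of it per cell cannot be told apart. Changes are given as log2 of the scaled TPM plus 1, raffinose minus YPD, with the standard error, and understate the change of genes with few TPM.

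Of the 729 genes called up, 502 were also called up in WT, which is 68.9% of the K655/657Q calls and 41.5% of the 1211 WT calls (19.0% of all genes). Of the 579 called down, 440 were called down in WT, 76.0% of the K655/657Q calls and 37.5% of the 1173 WT calls (18.5% of all genes). K655/657R shared 477 genes called up (65.4% of the K655/657Q calls and 43.1% of its own) and 401 called down (69.3% and 37.3%), while 17.4% of all genes were called up and 16.9% down in K655/657R. Calls in opposite directions were few: 12 genes called up and 8 called down in K655/657Q had the opposite call in WT. In the test of the difference itself, 554 of the 729 genes up and 403 of the 579 genes down gave no call for a response that differed between K655/657Q and WT.

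RiBi genes as a group were nearly flat in the acetyl-mimic strain. Of 164 RiBi genes tested, 2 were called up and 7 down in K655/657Q, against 11.5% and 9.11% of all genes, and 155 changed by less than 1.5-fold. Their median change was -0.07, with quartiles of -0.23 and 0.13, beside 0.00 over all genes. The sign of this median depended on the scaling, as it was -0.03 with upper quartile scaling, 0.05 with ACT1 and 0.12 with TPM as deposited, where the calls were 9 up and 4 down (5 up and 4 down with ACT1). In K655/657R the same genes had a median of 0.92, with 125 called up and none down (2 lower at an unadjusted limma p under 0.05), and in WT a median of 1.15, with 145 called up and none down (1 lower at that p). The response of K655/657Q was lower than that of WT for 153 of the 164 genes, against 9.39% of all genes, and higher for 0, also at an unadjusted limma p under 0.05. It was lower than that of K655/657R for 136, against 10.2% of all genes. Against WT the same count was 160 with TPM as deposited and 164 with ACT1 scaling.

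The mean level of the RiBi genes, as log2 of scaled TPM plus 1, was 4.11 ± 0.010 in raffinose and 4.17 ± 0.049 in YPD in K655/657Q (SD, n = 2 each). It was 4.35 in raffinose and 3.45 in YPD in K655/657R, and 4.57 in raffinose and 3.44 in YPD in WT. The K655/657Q level in raffinose was thus below that of both other strains, and its level in YPD above both. As medians over the genes, K655/657Q minus WT was -0.47 in raffinose and 0.71 in YPD, so the larger gap between the strains was in YPD. The box plots of responses by strain show the RiBi genes around 0 in K655/657Q only among the 3 strains. The RP and respiratory chain genes mostly move in the same direction in all of them, though not always by the same amount.

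**Figure D1:**
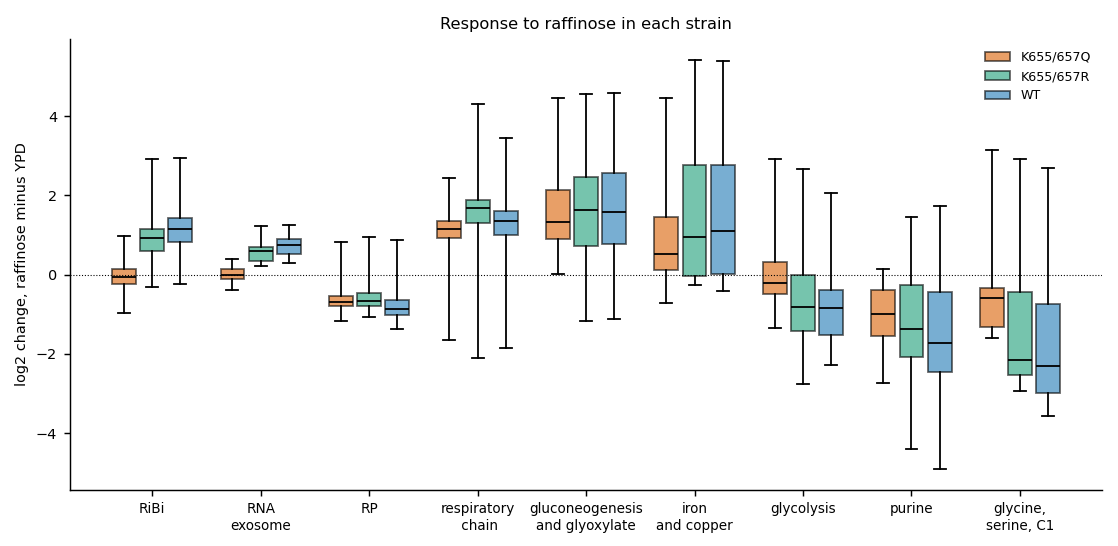
Box plots of the log2 change, raffinose minus YPD, of the genes of 9 lists in K655/657Q, K655/657R and WT, from top to bottom of the legend; the box spans the quartiles, the line is the median and the whiskers reach the lowest and highest gene. The RiBi median is -0.07 in K655/657Q, against 0.92 in K655/657R and 1.15 in WT, whereas the RP median is negative in all 3 strains.

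Single RiBi genes of each assembly step had small changes. NOB1, the nuclease that trims the last stretch of 18S rRNA precursor, had 16.0 and 15.7 scaled TPM in raffinose, against 13.2 and 12.4 in YPD, a change of 0.29 ± 0.07 (limma, adjusted p = 0.0023), against 1.65 in WT. HAS1, a helicase of both subunits, had 35.7 and 33.4 in raffinose, against 38.4 and 45.1 in YPD (change -0.26 ± 0.09). The raffinose libraries of NOB1 were both above and those of HAS1 both below their YPD libraries, and neither gene reached 1.5-fold. NUG1, a GTPase for export of the large subunit, changed by 0.27 ± 0.09 and NSA1, a large subunit assembly factor, by 0.19 ± 0.07. RPF2, which brings 5S rRNA into the large subunit, changed by -0.39 ± 0.10, against 1.15 in WT. These 5 genes were RT-qPCR targets in the study. In K655/657Q 3 of them were higher and 2 lower in raffinose, and all 5 were called up in WT, at 0.98 to 1.65.

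The promoter of NOB1 is printed because it holds the sequence elements that mark RiBi genes. The 200 bases from 300 to 101 before its start codon lie at chrXV:431727-431926, reverse strand, and capitals mark every match on either strand to GATGAG, the core of the PAC element, and AAATTTT, the core of the RRPE:
NOB1: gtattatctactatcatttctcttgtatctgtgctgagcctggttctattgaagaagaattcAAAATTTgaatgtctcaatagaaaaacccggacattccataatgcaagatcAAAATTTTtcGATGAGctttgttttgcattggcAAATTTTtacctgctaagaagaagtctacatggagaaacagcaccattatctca
Shares of promoters, here and below, count matches on either strand. GATGAG was found in 86.6% of the RiBi promoters and 18.4% of the 5793 promoters in the window of 300 bases before the start codon, and AAATTTT in 92.1% and 24.9%. Among all 652 promoters of genes called up the shares were 17.3% and 16.4%, and among 538 of genes called down 14.5% and 27.7%. All 7 RiBi genes called down held both elements, as did the 2 called up. A match is a description of the letters and shows no binding.

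The exceptions among RiBi genes lay mostly in the small nucleolar RNP group, the proteins that modify rRNA, with 4 of 17 called down, 1 up and a median of -0.25. NHP2, an H/ACA particle protein, had 92.0 and 87.6 scaled TPM in raffinose, against 190.4 and 163 in YPD (-0.96 ± 0.11). NOP56, of the C/D particles that guide methylation, had 51.4 and 41.9 in raffinose, against 94.0 and 83.9 in YPD (-0.92 ± 0.10), and GAR1 changed by -0.83 ± 0.07. These 3 genes were lower in both raffinose libraries than in either YPD library, while in WT they changed by 0.17, 0.13 and -0.24. NAF1, which assembles the H/ACA particles, went the other way at 0.97 ± 0.09 (12.1 and 14.4 scaled TPM in raffinose, against 5.95 and 6.53 in YPD). NOP1, the methyltransferase of the C/D particles, was called down at -0.63 but was under the fold limit, at -0.57, without YPD replicate 1. Of 59 small subunit processome genes, KRR1 was called down (-0.85 ± 0.09) and UTP5 up (0.71 ± 0.10), a call lost without YPD replicate 2, at 0.57. Of 74 large subunit genes, NOP7 (-0.65) and BRX1 (-0.61) were called down, and both were called up in WT (1.25 and 1.23). Without raffinose replicate 2 these changes were -0.58 and -0.53, under the fold limit, and without YPD replicate 1 NOP7 was at -0.55. None of the 15 late small subunit maturation genes was called, with 2 higher and 3 lower at an unadjusted limma p under 0.05.

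The RNA exosome and the RNA polymerases for rRNA and tRNA genes were taken next. None of the 14 RNA exosome genes, which process rRNA precursors, was called in K655/657Q (median -0.01, mean 0.00, with 3 higher and 3 lower at an unadjusted limma p under 0.05), whereas 8 were called up in WT (median 0.75) and the response was lower than in WT for 8. RRP4, a cap subunit, changed by 0.39 ± 0.08, against 1.25 in WT, and MTR4, the exosome helicase, by -0.21 ± 0.08, against 1.21. None of 19 RNA polymerase III genes was called (4 higher and 5 lower at that p), against 7 up in WT. Over all genes, 3660 of 6357 had an unadjusted p under 0.05. RNA polymerase I, which transcribes the rRNA genes, had 3 of 15 genes down and 1 up, but 1 down and 1 up with ACT1 scaling and 0 down and 2 up with TPM as deposited. RPA12 fell to 53.6 and 60.9 scaled TPM in raffinose, against 96.5 and 101 in YPD (-0.78 ± 0.09), and RPA49 changed by -0.69 ± 0.10, both being subunits of the enzyme. The RPA12 call was lost with TPM as deposited (-0.57) and the RPA49 call there (-0.49) and with ACT1 scaling (-0.56). RPA43 was at -0.61, and lost its call without raffinose or YPD replicate 1 (-0.54 and -0.57) and under each other scaling (-0.56, -0.48 and -0.41). In WT the changes of these 3 were 0.18, 0.63 and 0.91.

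Of 18 regulators of these genes, 3 (16.7%) were called up, against 11.5% of all genes, and none down (2 lower and 11 higher at an unadjusted limma p under 0.05). The genes called were CRF1, a corepressor of RP genes (0.76 ± 0.10), ABF1, a general promoter factor (0.65 ± 0.10), and IFH1, an RP coactivator (0.64 ± 0.09, against 1.33 in WT). Without YPD replicate 2, ABF1 and IFH1 were at 0.57 and 0.56, below the limit. SCH9, the TORC1 effector kinase, changed by 0.40 ± 0.11 and RAP1, the factor bound at RP promoters, by 0.36 ± 0.07.

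RP genes fell. Of 137 RP genes, 93 were called down and 2 up, 131 had a negative change, and the libraries of raffinose and YPD did not overlap for 134 of them, against 75.8% of all genes. The median change was -0.69, and -0.72, -0.70, -0.67 and -0.65 for the 4 pairings of a raffinose library with a YPD library. The count of RP genes called down was 60 with ACT1 scaling (median -0.56) and 33 with TPM as deposited (median -0.49), so the number past the limit depends on the scaling while the direction did not. In WT 107 were called down (median -0.86) and in K655/657R 82 (median -0.65). The response was called higher than that of WT for 1 gene and lower for 1, with a median difference of 0.18. At an unadjusted limma p under 0.05 it was higher for 55 and lower for 4, against 1554 and 1376 of all 6357 genes. With ACT1 scaling it was called higher for 0 and lower for 28, with a median difference of -0.41. RPL9A, a large subunit protein, had 658 and 690.2 scaled TPM in raffinose, against 1562 and 1486 in YPD (-1.18 ± 0.07; limma, adjusted p = 4.4e-09). RPS25B, of the small subunit, had 528 and 555 in raffinose, against 1069 and 1105 in YPD (-1.0 ± 0.07). In both genes the raffinose libraries lay well below the YPD libraries. RPS11B changed by -0.67 ± 0.08 and RPL2B by -0.59 ± 0.06, the RP genes among the RT-qPCR targets, and RPL2B was under the fold limit, at -0.58 and -0.56, without raffinose replicate 2 or YPD replicate 1. Many RP genes are duplicated, and RPL9A and RPL2B share 24.9% and 39.2% of their 31-base words with other transcripts, so reads could be split between copies.

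The translation apparatus outside the ribosome also held genes that fell. All 19 aminoacyl-tRNA synthetase genes had a negative change (median -0.41), and 7 were called down, though 3 were with ACT1 scaling and 1 with TPM as deposited. WRS1, which charges tryptophan tRNA, had 25.2 and 27.8 scaled TPM in raffinose, against 51.2 and 52.9 in YPD (-0.95 ± 0.08). Of 37 translation factor genes 9 were called down and none up (median -0.39, with 1 higher at an unadjusted limma p under 0.05), and 4 were called down with ACT1 scaling and with TPM as deposited. TEF4, a part of elongation factor eEF1B, had 287 and 280.4 in raffinose, against 524 and 569 in YPD (-0.94 ± 0.07), and SUP45, the release factor, changed by -0.92 ± 0.09. ANB1, the isoform of eIF5A made at low oxygen, had the largest change of the list, at -1.73 ± 0.17, and a larger one in WT (-3.76). Of the 54 mitochondrial ribosomal protein genes, by contrast, every one had a positive change (median 0.52), and 20 were called up, 35 with ACT1 scaling and 42 with TPM as deposited. RSM7, of the mitochondrial small subunit, had 51.6 and 60.7 in raffinose, against 29.1 and 25 in YPD (1.02 ± 0.10). The dot plot of gene lists places the cytosolic and mitochondrial ribosomal proteins on opposite sides of the all-gene median.

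**Figure D2:**
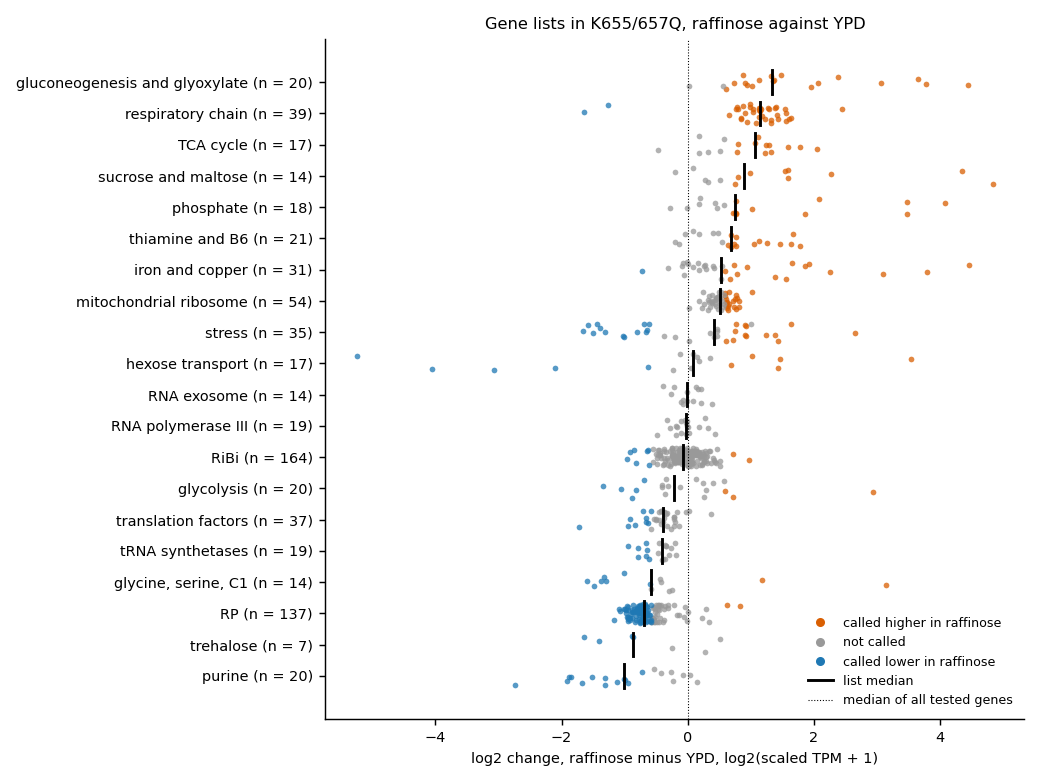
Log2 change, raffinose minus YPD, in K655/657Q for the genes of 20 lists, with 1 dot per gene; orange dots were called higher and blue dots lower in raffinose, grey dots were not called, the black bar is the list median and the dotted line the median of all 6357 genes. The RiBi list straddles 0 with a median of -0.07, the RP list sits lower with a median of -0.69, and the respiratory chain list sits higher with a median of 1.14.

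Sugar uptake and breakdown genes were among the largest changes. SUC2, the invertase that cleaves raffinose (YIL162W), had 1089 and 998 scaled TPM in raffinose, against 35.1 and 36.2 in YPD, which is 29.3 times as much (4.83 ± 0.08; limma, adjusted p = 6.4e-16). HXT3, a low-affinity glucose transporter, had 12.2 in each raffinose library, against 490.3 and 504 in YPD (-5.24 ± 0.13; limma, adjusted p = 1.4e-13). No library of either gene came near the other medium. HXT1, the transporter for high glucose, had 1.24 and 1.81 in raffinose, against 20.4 and 19.9 in YPD (-3.08 ± 0.12), and HXT4 18.6 and 17.5 in raffinose, against 315 and 311 in YPD (-4.05 ± 0.14). HXT6, a high-affinity transporter, rose to 2787 and 2698 scaled TPM in raffinose, against 241 and 231 in YPD (3.53 ± 0.10). HXT7, its near-identical neighbour, rose by 1.47 ± 0.13, and the pair share 96% of their 31-base words, so that the split between them is uncertain. Of 17 hexose transport genes, 5 were called up and 5 down, with a median of 0.09 and a mean of -0.38. HXT5 was under the fold limit, at 0.36 ± 0.14.

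Of 14 invertase, maltose and isomaltose genes, 9 were called up and 0 down (median 0.89), and 0 were lower even at an unadjusted limma p under 0.05. MAL12, a maltase, had 63.5 and 61.6 in raffinose, against 2.13 and 2.11 in YPD (4.35 ± 0.12), and MAL32, the second maltase gene, 13.0 and 12.9 in raffinose, against 1.86 and 1.95 in YPD (2.26 ± 0.11). MAL33, a maltose activator, rose by 1.54 ± 0.09. The maltase genes share 90% of their 31-base words, and IMA3 and IMA4, 2 isomaltase genes, all of them, so that both carry the same value (1.58 ± 0.12). Of 8 galactose genes, GAL3 (1.24 ± 0.12) and GAL4 (1.06 ± 0.08), the sensor and the activator of the pathway, were called up. GAL7 had 1.23 and 0.877 in raffinose, against 4.06 and 3.99 in YPD (-1.30 ± 0.15) and PGM2, which also serves glycogen and trehalose synthesis, fell by 1.26 on the log2 scale.

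**Figure D3:**
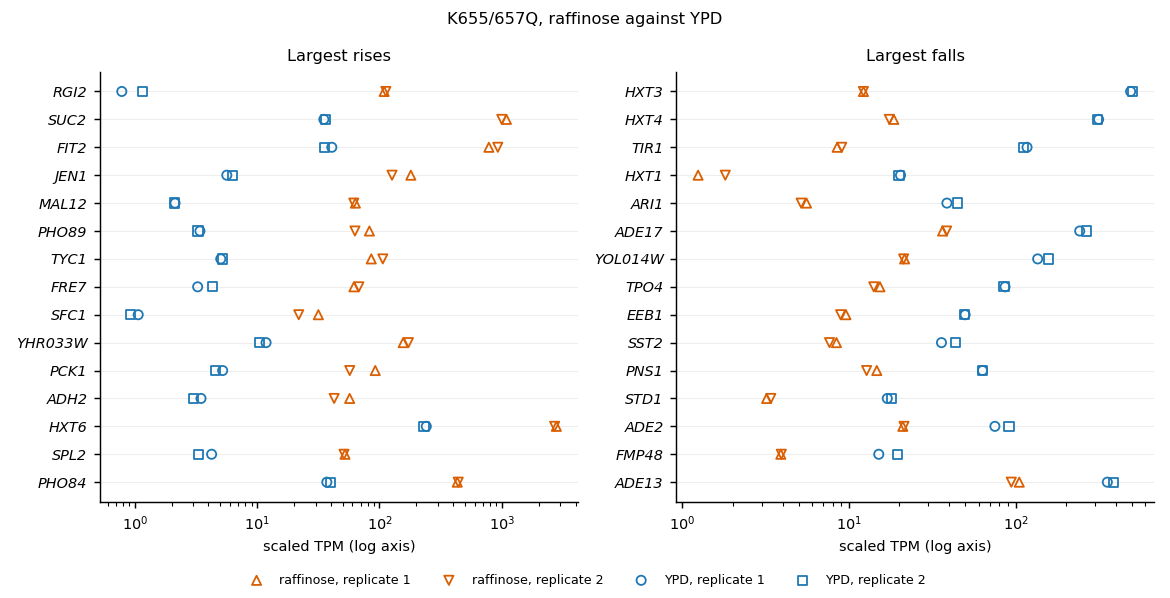
Scaled TPM of the 15 genes with the largest rise (left) and the 15 with the largest fall (right) in K655/657Q among called genes with a mean of at least 10 TPM, on a log axis; triangles are the raffinose libraries and the circle and square the YPD libraries. In every gene shown both raffinose libraries lie on 1 side of both YPD libraries, for instance SUC2 with 1089 and 998 in raffinose and 35.1 and 36.2 in YPD.

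Glucose synthesis and respiration genes rose together. Of 20 genes for gluconeogenesis, the glyoxylate cycle and their regulators and transporters, 18 were called up and 0 down (median 1.34), and 0 were lower at an unadjusted limma p under 0.05. JEN1, the lactate and pyruvate transporter, had 180.3 and 127 scaled TPM in raffinose, against 5.65 and 6.28 in YPD (4.45 ± 0.15; limma, adjusted p = 2.6e-12). PCK1, which makes phosphoenolpyruvate, had 92.3 and 57.1 in raffinose, against 5.23 and 4.57 in YPD (3.64 ± 0.17), and FBP1, fructose-1,6-bisphosphatase, 44.5 and 32.3 in raffinose, against 3.41 and 3.87 in YPD (3.07 ± 0.17). In these genes raffinose replicate 1 was above replicate 2. The ratio of replicate 1 to replicate 2 had a median of 1.24 over the 20 genes of the list and was at most 1.62. ICL1, isocitrate lyase, had 26.5 and 16.6 in raffinose, against 9.97 and 11.5 in YPD (0.91 ± 0.17), and MLS1, malate synthase, 3.70 and 3.56 in raffinose, against 1.52 and 1.51 in YPD (0.88 ± 0.16). The activators of these genes rose less, CAT8 by 1.13 ± 0.11 and ADR1 by 1.37 ± 0.07. The responses of PCK1, FBP1, SFC1 and ICL1 were lower than in WT, by -0.66, -0.88, -0.69 and -0.69 (limma, adjusted p = 0.045, 0.0089, 0.036 and 0.038). Over the 20 genes the response was higher than in WT for 4 and lower for 6, with a median difference of -0.13. These counts were 3 higher and 7 lower with TPM as deposited, and 0 higher and 12 lower with ACT1 scaling.

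Of 39 nuclear genes for the respiratory chain and ATP synthase, 37 were called up and 2 down, under each of the 4 scalings (median 1.14). The response was lower than that of K655/657R for 16 and higher for 3 (median difference -0.52), against 10.2% and 10.5% of all genes. Compared with WT it was lower for 3 and higher for 3 (median difference -0.17). With ACT1 scaling it was lower for 31 and higher for 1 against K655/657R, and lower for 30 and higher for 0 against WT. The raffinose and YPD libraries did not overlap for any of the 39, while 75.8% of all genes also had no overlap. CYC1, the aerobic cytochrome c, had 938 and 1008 scaled TPM in raffinose, against 178 in each YPD library (2.44 ± 0.08). CYC7, its low-oxygen isoform, had 50.0 and 53.6 in raffinose, against 173 and 154 in YPD (-1.64 ± 0.15), and the cytochromes c thus moved in opposite directions. ATP1, the alpha subunit of ATP synthase, rose by 1.61 ± 0.09 and QCR10, of complex III, by 1.64 ± 0.07. HAP4, the activator subunit of respiratory genes, did not follow: it had 101 and 91.4 in raffinose, against 108 and 149.6 in YPD, and its change of -0.40 ± 0.13 was under the fold limit (-0.63 without YPD replicate 1, which is past it). CCAAT, the box that the HAP complex binds, was in 83.8% of the 37 promoters called up and 42.5% of all promoters. Of 17 tricarboxylic acid cycle genes 11 were called up and none down (median 1.07, with 1 lower at an unadjusted limma p under 0.05). SDH1, of succinate dehydrogenase, had 348 and 327 in raffinose, against 79.2 and 81.7 in YPD (2.05 ± 0.12) and CIT1, mitochondrial citrate synthase, 424 and 421 in raffinose, against 159.6 and 177 in YPD (1.32 ± 0.10). Carriers of the inner membrane were mixed, with 8 of 18 up and 2 down; ODC1, the oxodicarboxylate carrier, rose by 2.88 ± 0.09 and MIR1, the phosphate carrier, by 1.87 ± 0.08.

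Glycolysis was split by isoenzyme. HXK1, a hexokinase repressed by glucose, had 2219 and 2035 scaled TPM in raffinose, against 252 and 306 in YPD (2.93 ± 0.10), and 5 of the 20 glycolytic genes were called down, among them ENO2, an enolase (4528 and 4495 in raffinose, against 11695 and 11104 in YPD; -1.34 ± 0.06), and CDC19, pyruvate kinase (-1.06 ± 0.09). The list had 3 genes up and a median of -0.21 (-0.00 with TPM as deposited), against a median of -0.84 with 12 genes down in WT. The response of K655/657Q was higher than that of WT for 13 genes and lower for 0, also at an unadjusted limma p under 0.05, but with ACT1 scaling it was higher for 2 and lower for 1. ADH2, the alcohol dehydrogenase that oxidises ethanol, had 57.0 and 42.6 in raffinose, against 3.48 and 3.01 in YPD (3.57 ± 0.21), and ADH1, which makes ethanol, 7552 and 7857 in raffinose, against 9079 and 8647 in YPD (-0.20 ± 0.07, under the fold limit). In WT, ADH1 changed by -1.01. PDC6 and ACS1 rose too, by 0.86 and 1.47, the first a minor pyruvate decarboxylase and the other the acetyl-CoA synthetase used without glucose. Glycerol use went up with GUT2, the mitochondrial glycerol 3-phosphate dehydrogenase (1.94 ± 0.09), and GUT1, glycerol kinase (1.06 ± 0.09), while GPD1, of glycerol synthesis, changed by -0.69 ± 0.13.

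Regulators of the glucose response were divided, with 7 of 31 called up and 3 down (median 0.05). REG2, a subunit of the Glc7 phosphatase, had 23.7 and 19.6 scaled TPM in raffinose, against 1.91 and 1.87 in YPD (2.97 ± 0.14), and SIP4, an activator of gluconeogenic genes, 3.86 and 2.98 in raffinose, against 0.751 and 0.757 in YPD (1.33 ± 0.13). STD1, which controls the hexose transporter repressor Rgt1, had 3.20 and 3.39 in raffinose, against 17.0 and 18.0 in YPD (-2.10 ± 0.08, against -1.43 in WT). REG2 and SIP4 were higher, and STD1 lower, in both raffinose libraries than in either YPD library. SNF3, the sensor of low glucose, rose by 1.01 ± 0.08, while MIG1, the glucose repressor, changed by -0.15 ± 0.11 and MTH1, the partner of Std1, by -0.13 ± 0.10, neither past the test (limma, adjusted p = 0.26 and 0.31). Of 18 genes for fatty acid oxidation in the peroxisome, 5 were called up and none down (1 lower at an unadjusted limma p under 0.05), among them POT1, the thiolase of this cycle (0.85 ± 0.12), POX1, the acyl-CoA oxidase (0.77 ± 0.12), and CTA1, the peroxisomal catalase (0.76 ± 0.09). Of 15 glycogen genes 2 were up and 3 down (median -0.11), against 11.5% and 9.11% of all genes. The counts were 3 up and 3 down with ACT1 scaling (median 0.02) and 4 up and 3 down with TPM as deposited (median 0.10). Among the genes down were GSY1, a glycogen synthase, at -0.89 ± 0.10 and UGP1, which makes UDP-glucose, at -0.95 ± 0.09.

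Phosphate uptake genes formed another group that rose, with 11 of 18 called up and none down (median 0.75, with 1 lower at an unadjusted limma p under 0.05). PHO84, the high-affinity phosphate transporter, had 432 and 440.1 scaled TPM in raffinose, against 37.1 and 39.6 in YPD (3.47 ± 0.10; limma, adjusted p = 1.2e-12). PHO89, the sodium-coupled transporter, had 82.7 and 63.0 in raffinose, against 3.41 and 3.29 in YPD (4.07 ± 0.14), and SPL2, an inhibitor of low-affinity uptake, 52.3 and 51.3 in raffinose, against 4.25 and 3.30 in YPD (3.47 ± 0.12). No raffinose library of these genes overlapped the YPD libraries. The responses were larger than in WT by 0.67, 0.73 and 1.06 (limma, adjusted p = 0.0021, 0.008 and 1.3e-04). Over the 18 genes the response was higher than in WT for 4 and lower for 1, a count of 1 higher and 1 lower with TPM as deposited and 0 higher and 5 lower with ACT1 scaling, so the call of a larger response depends on the scaling. PHO5, a secreted acid phosphatase, rose by 2.08 ± 0.08 and PHO81, the inhibitor of the Pho85 kinase, by 1.02 ± 0.07. TYC1, a short open reading frame that lies between PHO89 and the maltose gene MAL33, had 85.7 and 106 in raffinose, against 5.05 and 5.23 in YPD (3.97 ± 0.57). The SPL2 promoter is printed for its Pho4 element, CACGTG, in capitals, from 300 to 101 bases before the start codon (chrVIII:375201-375400, reverse strand):
SPL2: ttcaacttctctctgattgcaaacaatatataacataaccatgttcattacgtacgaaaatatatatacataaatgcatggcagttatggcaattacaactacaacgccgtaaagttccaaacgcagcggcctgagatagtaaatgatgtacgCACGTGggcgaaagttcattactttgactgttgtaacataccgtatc
CACGTG was in 54.5% of the promoters of the 11 phosphate genes called up, in 44.4% of all 18 and in 3.61% of all promoters.

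Iron and copper uptake genes rose as well, with 14 of 31 called up and 1 down (median 0.52). FIT2, a cell wall mannoprotein that holds siderophore iron, had 783 and 926 scaled TPM in raffinose, against 40.8 and 35.3 in YPD (4.45 ± 0.12; limma, adjusted p = 2.7e-13), and FIT3, its relative, 622 and 730.3 in raffinose, against 80.0 and 76.8 in YPD (3.09 ± 0.13). FRE7, a copper-regulated reductase, had 61.8 and 67.8 in raffinose, against 3.27 and 4.31 in YPD (3.79 ± 0.20) and CTR1, the copper transporter, 144 and 152 in raffinose, against 28.3 and 32.3 in YPD (2.25 ± 0.14). These 4 genes separated the media in every library. In WT the list had 18 genes called up. For 14 of the 31 genes the response of K655/657Q was lower than in WT and for none higher (1 at an unadjusted limma p under 0.05), and with ACT1 scaling it was lower for 21. FET3, the ferroxidase of high-affinity iron uptake, rose by 0.77 ± 0.09 in K655/657Q, against 4.19 in WT, and CTR1 by 2.25, against 4.27. The FIT2 promoter between 300 and 101 bases before the start codon (chrXV:1059231-1059430, forward strand) is printed because it holds the letters GCACCC, the core of the site of the iron regulator Aft1, 3 times over both strands, in capitals:
FIT2: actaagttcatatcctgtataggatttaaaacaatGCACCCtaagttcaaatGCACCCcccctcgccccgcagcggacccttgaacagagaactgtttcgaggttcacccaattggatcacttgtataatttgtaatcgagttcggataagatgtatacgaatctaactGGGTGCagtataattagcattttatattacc
This core was in 51.6% of the 31 promoters of the list, in 64.3% of those of the 14 genes called up, in that of the 1 gene called down, and in 4.09% of all promoters. Of 21 thiamine and vitamin B6 genes, 13 were called up, with THI13 at 1.67 ± 0.10 and SNZ3 at 1.47 ± 0.11, but the THI5 family and the SNZ2 and SNZ3 pair share most of their sequence, and the values of single copies are uncertain.

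**Figure D4:**
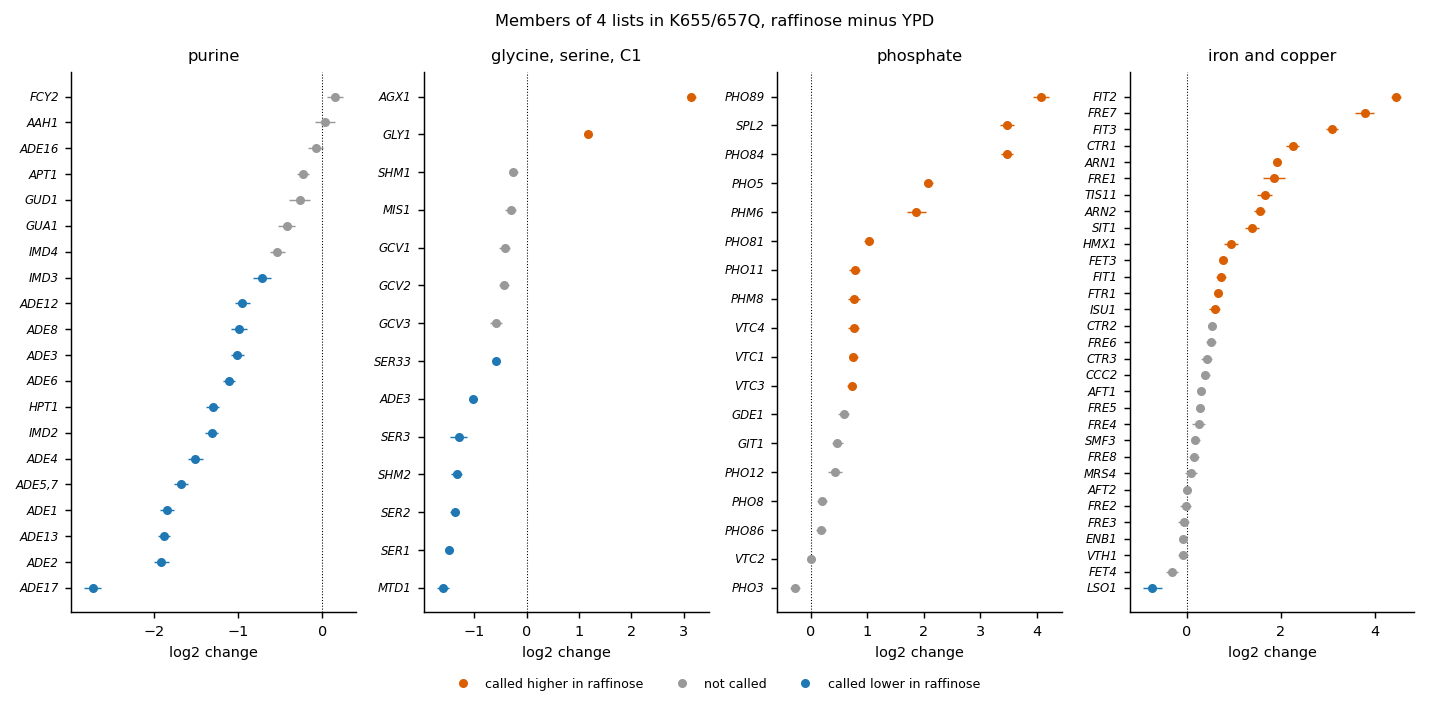
Log2 change, raffinose minus YPD, of each member of the purine, the glycine, serine and one-carbon, the phosphate, and the iron and copper lists in K655/657Q; points are limma estimates and bars standard errors, from 2 libraries in each medium. Purine genes lie at or below 0 for 18 of 20 members, and 16 of 18 phosphate genes lie above 0.

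Purine synthesis genes fell, with 13 of 20 called down and 0 up (median -1.0), and 0 were higher at an unadjusted limma p under 0.05. ADE17, which completes the purine ring, had 36.4 and 38.5 scaled TPM in raffinose, against 243 and 267 in YPD (-2.73 ± 0.10; limma, adjusted p = 9.7e-12). ADE13, adenylosuccinate lyase, had 105 and 94.2 in raffinose, against 355 and 387 in YPD (-1.89 ± 0.08), and ADE4, the first enzyme of the pathway, 18.7 and 19.2 in raffinose, against 59.3 and 52.8 in YPD (-1.51 ± 0.09). Raffinose and YPD were far apart in both replicates. ADE2 changed by -1.92 ± 0.09. The labels give every strain the ade2-1 allele, but the paper's strain table lists none for the MYC-tagged KanMX strains. The ADE2 transcript may thus not be that of a working gene. In WT the falls were larger, at -4.91 for ADE17 and -3.06 for ADE13, and 11 of the 20 genes had a higher and 4 a lower response in K655/657Q than in WT (3 and 5 with ACT1 scaling). ADE17 had 36.4 and 38.5 scaled TPM in K655/657Q and 21.8 and 19.8 in WT in raffinose, and 243 and 267 in K655/657Q and 671 and 639 in WT in YPD.

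Genes for glycine, serine and one-carbon units were down as well, with 7 of 14 called down and 2 up (median -0.58), against 11 down in WT with a median of -2.31. The response was higher than in WT for 9 genes and lower for 0 (2 lower at an unadjusted limma p under 0.05). With ACT1 scaling it was higher for 6 and lower for 3. SHM2, serine hydroxymethyltransferase, had 145 scaled TPM in each raffinose library, against 346 and 389.7 in YPD (-1.33 ± 0.10, against -3.47 in WT), and MTD1, which oxidises a folate-bound unit, 20.2 and 22.5 in raffinose, against 66.8 and 66.0 in YPD (-1.60 ± 0.11). SER1, of serine synthesis, fell by 1.48 on the log2 scale. AGX1, which makes glycine from glyoxylate, ran against the list, with 131 and 145 in raffinose, against 14.9 and 14.6 in YPD (3.14 ± 0.08). The ADE17 promoter is shown for the element TGACTC, in capitals, which Bas1 and Gcn4 recognise, from 300 to 101 bases before the start codon (chrXIII:509381-509580, reverse strand):
ADE17: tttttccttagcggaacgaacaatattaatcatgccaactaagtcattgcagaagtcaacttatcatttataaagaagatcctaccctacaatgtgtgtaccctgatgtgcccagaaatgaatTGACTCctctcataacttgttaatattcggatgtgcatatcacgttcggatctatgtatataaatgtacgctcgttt
TGACTC was in 60.0% of the purine promoters, in 64.3% of those of the glycine, serine and one-carbon list and in 7.96% of all promoters. This element, CACGTG and GCACCC were chosen after the data were seen.

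Amino acid genes were mixed. Of 21 permease genes, 10 were called up and 1 down (median 0.47). AGP1, a broad permease, had 136 and 118 scaled TPM in raffinose, against 32.3 in each YPD library (1.94 ± 0.12), against -0.13 in WT, and DIP5, for acidic amino acids, 94.9 and 92.0 in raffinose, against 33.0 and 34.8 in YPD (1.44 ± 0.11, against 0.21 in WT). MUP3, a methionine permease, was the only one called down (-1.53 ± 0.11). Of 13 arginine genes, 6 were called up and none down (3 lower at an unadjusted limma p under 0.05), whereas WT had 2 up and 5 down. CAR2 and CAR1, of arginine breakdown, rose by 1.57 and 1.15, and CPA1, of arginine synthesis, by 1.12. GLN1, glutamine synthetase, had 155 and 157 in raffinose, against 476 and 466 in YPD (-1.59 ± 0.08), and GDH1, glutamate dehydrogenase, 279.6 and 281 in raffinose, against 106 and 126 in YPD (1.27 ± 0.10). The ammonium enzymes thus moved in opposite directions. LEU2 rose by 1.70 ± 0.11 and BAT2, a cytosolic branched-chain aminotransferase, changed by -1.08 ± 0.09. The strains carry a mutant leu2 allele, and so LEU2 values are not those of a working gene. In the aromatic list ARO9 and ARO10, of aromatic amino acid breakdown, rose by 1.12 and 1.38, and ARO3 and ARO8 changed by -0.77 and -0.65.

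Stress and storage genes did not move as a group. Of 35 general stress genes, 13 were called up and 13 down (median 0.42, mean 0.09), against 11.5% and 9.11% of all genes. The even split depended on the scaling, with 15 up and 9 down with ACT1 scaling and 17 up and 9 down with TPM as deposited. In WT 8 were up and 16 down. TMA10, a ribosome-associated stress protein, had 2673 and 2632 scaled TPM in raffinose, against 457 and 386 in YPD (2.66 ± 0.15), and DDR2 rose by 1.64 ± 0.16. CTT1, cytosolic catalase, had 7.91 and 8.11 in raffinose, against 24 and 28.3 in YPD (-1.59 ± 0.12), and GAD1, glutamate decarboxylase, changed by -1.43 ± 0.13. HSP12, a membrane-protecting small protein, was higher in raffinose (378 and 459.6, against 173 and 138 in YPD), with a wide error (1.42 ± 0.55; limma, adjusted p = 0.04), and the call was lost when any 1 of its 4 libraries was left out (adjusted p = 0.079 to 0.16). AGGGG, the stress response element, was in 69.2% of the promoters of the 13 genes up, in 84.6% of the 13 down and in 22.6% of all promoters. Trehalose genes went down, with 4 of 7 called down and none up (median -0.86, with 2 higher at an unadjusted limma p under 0.05). TSL1, a regulatory subunit of trehalose synthase, had 44.0 and 37.3 in raffinose, against 123 and 134 in YPD (-1.64 ± 0.13) and TPS1, its catalytic subunit, 156 in each raffinose library, against 277 and 305 in YPD (-0.89 ± 0.09). The TSL1 promoter, which holds the element 3 times, is printed because that gene fell although the element is usually described at induced genes (chrXIII:70324-70523, forward strand, from 300 to 101 bases before the start codon, AGGGG or its reverse complement in capitals):
TSL1: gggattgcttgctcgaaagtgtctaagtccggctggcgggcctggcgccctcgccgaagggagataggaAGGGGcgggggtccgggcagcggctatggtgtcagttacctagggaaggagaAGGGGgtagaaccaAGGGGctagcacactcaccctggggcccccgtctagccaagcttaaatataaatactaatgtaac
Among chaperones, HSP60 and HSP10 of the mitochondrion rose by 1.21 and 0.90, whereas the cytosolic SSA1 rose by 1.10 and SSA2 changed by -1.15, a pair that share 64% of their 31-base words.

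Membrane, wall and mating genes also changed. OLE1, the fatty acid desaturase, had 1015 and 967 scaled TPM in raffinose, against 200.0 and 202 in YPD (2.30 ± 0.12), and ERG20, of sterol synthesis, 80.2 and 74.9 in raffinose, against 157 and 167 in YPD (-1.05 ± 0.07), with 5 of 26 ergosterol genes down and none up (median -0.31, with 2 higher at an unadjusted limma p under 0.05), a count of 3 down with ACT1 scaling and 1 with TPM as deposited. Of 37 cell wall genes 7 (18.9%) were called up and 4 (10.8%) down, against 11.5% and 9.11% of all genes, and 11 were called up with ACT1 scaling and 15 with TPM as deposited. TIR1, a mannoprotein, had 8.49 and 9.04 in raffinose, against 117 and 112 in YPD (-3.56 ± 0.14; limma, adjusted p = 2.7e-11), while TIP1, another one, had 2228 and 2118 in raffinose, against 1001 and 966 in YPD (1.14 ± 0.11), so that relatives in the wall changed in opposite directions. The a-specific mating genes fell: STE2 by 1.52 on the log2 scale, MFA1, an a-factor gene, by 1.35, AGA2, an agglutinin subunit, by 1.5 and BAR1, the protease that destroys alpha-factor, by 1.22. Of the alpha-specific genes, at low levels, MF(ALPHA)1, an alpha-factor gene, rose by 2.52 ± 0.19 and STE3 by 0.62 ± 0.11, and MF(ALPHA)2 and SAG1 were not called (0.15 and 0.27). SST2, which turns the pheromone signal off, had 8.41 and 7.64 in raffinose, against 35.9 and 43.3 in YPD (-2.17 ± 0.09), and AGA1, the anchor of Aga2, 18.8 and 18.0 in raffinose, against 66.6 and 71.8 in YPD (-1.86 ± 0.09). In WT the changes of STE2 and AGA2 were -0.97 and -0.43, and AGA1 was at 0.39. Of 34 proteasome genes, 1 was called, the activator RPN4 (0.64 ± 0.07).

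Some RNAs outside these lists belonged to the largest changes. RGI2, needed for respiratory growth, rose 115-fold, to 109.2 and 113 scaled TPM in raffinose, against 0.784 and 1.15 in YPD (5.84 ± 0.19), and YHR033W, an uncharacterised gene, rose by 3.77 ± 0.08. YOL014W, also uncharacterised, had 21.6 and 21.3 in raffinose, against 136 and 158 in YPD (-2.72 ± 0.11), and ARI1, an aldehyde reductase, 5.56 and 5.16 in raffinose, against 38.7 and 44.8 in YPD (-2.75 ± 0.09). Genes called up had a median coding length of 969 bases and those called down 927 bases, against 1197 over all genes. Of 1139 tested reading frames with no symbol, 163 were called up and 99 down, which is near the 11.5% and 9.11% of all genes. These counts moved with the settings. They were 209 up and 68 down with ACT1 scaling, 251 and 56 with TPM as deposited, and 106 and 76 with all 24 libraries.

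The test of the difference between strains gave 1275 genes (20.1%) whose raffinose response differed between K655/657Q and WT, 678 higher (10.7%) and 597 lower (9.39%) in K655/657Q. Against K655/657R it gave 1315 genes (20.7%), 668 higher (10.5%) and 647 lower (10.2%). The split depended strongly on the scaling: 53.2% of the calls against WT were higher in K655/657Q here, 28.0% with TPM as deposited and 4.77% with ACT1, and against K655/657R 50.8%, 24.8% and 9.29%. ACT1 itself changed by -0.13 in K655/657Q and by -0.72 in WT, and the median difference from WT over all genes was 0.01 here, -0.17 with TPM as deposited and -0.52 with ACT1. The 20 genes with the largest differences from WT kept the direction of the difference under each of these scalings, and other genes named below were not compared between strains in this way.

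For 19 of the 20 genes with the largest differences from WT in either direction, the 2 strains were further apart in YPD than in raffinose. SNZ1, of vitamin B6 synthesis, had 73.1 scaled TPM in K655/657Q and 40.6 in WT in raffinose, and 52.3 scaled TPM in K655/657Q and 295 in WT in YPD, a difference in response of 3.31 ± 0.17 (limma, adjusted p = 2.7e-09). FET3 had 196 scaled TPM in K655/657Q and 282 in WT in raffinose, and 114 scaled TPM in K655/657Q and 14.5 in WT in YPD (-3.41 ± 0.13; limma, adjusted p = 2.1e-10). In these genes the strains had like levels in raffinose relative to the several-fold gap in YPD. TDH1, a glyceraldehyde phosphate dehydrogenase, had 817 scaled TPM in K655/657Q and 821 in WT in raffinose, against 667 scaled TPM in K655/657Q and 3988 in WT in YPD, and NSR1, a nucleolar protein, 184 scaled TPM in K655/657Q and 207 in WT in raffinose, against 148 scaled TPM in K655/657Q and 34.1 in WT in YPD. GCV2, of glycine cleavage, had 22.4 scaled TPM in K655/657Q and 12.6 in WT in raffinose and 30.7 scaled TPM in K655/657Q and 114 in WT in YPD. The exception was MNC1, with 333 scaled TPM in K655/657Q and 108 in WT in raffinose and 411 scaled TPM in K655/657Q and 763 in WT in YPD. The plot of both strains' responses shows the larger change in WT for most of these genes.

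**Figure D5:**
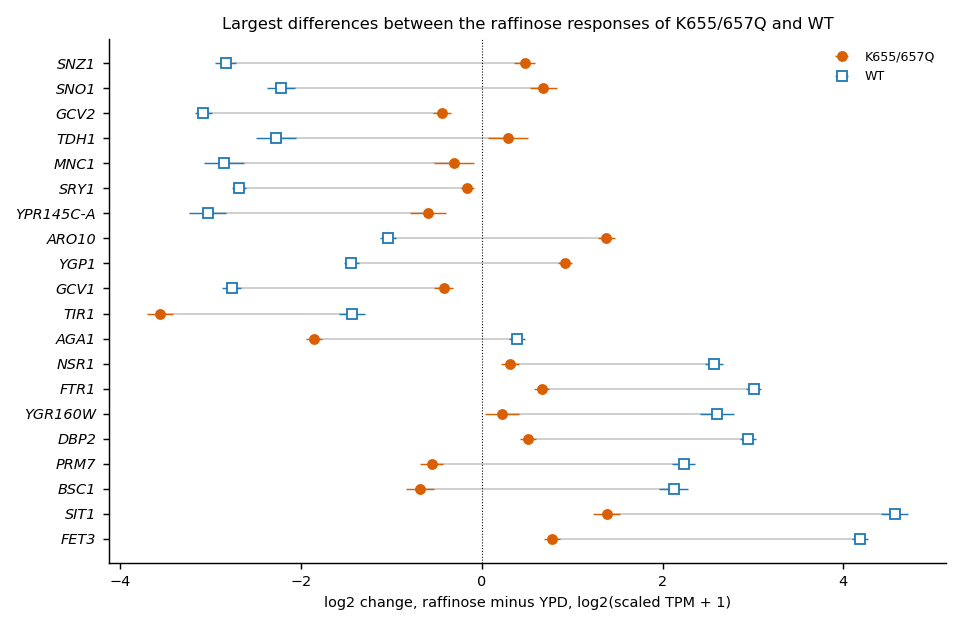
Log2 change, raffinose minus YPD, of the 20 genes whose response differs most between K655/657Q (filled) and WT (open squares), 10 in each direction; bars are limma standard errors, from 2 libraries per strain and medium. FET3 changes by 0.77 in K655/657Q and by 4.19 in WT, and SNZ1 by 0.47 in K655/657Q and by -2.83 in WT.

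Other genes among these 20 include more of the iron and glycine genes. SIT1, a siderophore transporter, had 86.4 scaled TPM in K655/657Q and 123 in WT in raffinose, against 32.5 scaled TPM in K655/657Q and 4.22 in WT in YPD, and rose by 1.38 ± 0.15 in K655/657Q and by 4.57 in WT. FTR1, the iron permease that works with Fet3, rose by 0.67 ± 0.08 in K655/657Q and by 3.01 in WT, with 90.8 scaled TPM in K655/657Q and 17.6 in WT in YPD. These iron uptake transcripts, like FET3, thus had a higher mean level in K655/657Q than in WT while both grew in YPD. DBP2, an RNA helicase, had 111 and 119.8 scaled TPM in raffinose, against 74.4 and 87.3 in YPD in K655/657Q, and its change of 0.51 ± 0.09 was under the fold limit (0.63, past it, without YPD replicate 2), against 2.94 in WT. SRY1, a dehydratase of hydroxyaspartate, had 22.6 and 22.9 in raffinose, against 23.8 and 27.4 in YPD in K655/657Q (-0.16 ± 0.07; limma, adjusted p = 0.084), against a change of -2.69 in WT. GCV1, the T protein of glycine cleavage, changed by -0.42 ± 0.11 in K655/657Q, with no call, and by -2.77 in WT. SRY1 and GCV1 were thus not called in K655/657Q and called down in WT. PRM7, which lies next to BSC1 on chromosome IV, changed by -0.56 ± 0.13, also with no call (-0.66 and -0.60, past the limit, without raffinose or YPD replicate 1), and by 2.23 in WT. The reading frame YPR145C-A was called down at -0.60 ± 0.20, a call kept without raffinose replicate 2 only, against -3.03 in WT, and YGR160W changed by 0.22 ± 0.18, against 2.60 in WT.

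In all, 20 genes were called in opposite directions in K655/657Q and WT, 4 of them (YGP1, SNO1, ARO10 and BSC1) among the 20 with the largest differences. The 20 include 3 reading frames, YFL068W, YLL067W-A and YLL066W-A, that carry the same values in every library and so count as 1 measurement. YGP1, a secreted glycoprotein, had 278 and 293 scaled TPM in raffinose, against 147 and 154 in YPD in K655/657Q (0.92 ± 0.08) and changed by -1.44 in WT. SNO1, the partner of SNZ1, changed by 0.68 ± 0.15 in K655/657Q and -2.22 in WT, and ARO10 by 1.38 ± 0.09 in K655/657Q and -1.04 in WT. HSP26, a small heat shock protein, rose by 0.76 (0.56, under the limit, without raffinose replicate 2), against -0.67 in WT. The genes called down in K655/657Q and up in WT included NOP7, BRX1, RPA49 and RPA43, and BSC1, which was at -0.68 in K655/657Q and at 2.12 in WT. The BSC1 call was lost in K655/657Q without raffinose replicate 2 (-0.49).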

How the data were processed

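The authors sequenced directional libraries of polyA-selected RNA, trimmed the reads with fastp 0.23.2 and quantified them with kallisto 0.48.0 against the R64 transcriptome from Ensembl, and deposited the TPM of every transcript and library. FastQC 0.11.9 and MultiQC 1.12 are also named in the submitters' processing notes. A TPM value is relative to the total of its library and holds no read count, so depth and counting error are unknown and no count test was used.

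Here TPM were divided by median-of-ratios size factors (from the 6363 transcripts above 0 in every library fitted), 1 was added, and log2 values were fitted with limma 3.58.1 in R 4.3.3 (lmFit, and eBayes with a trend) over 23 libraries, with a mean for each strain and condition and 11 residual degrees of freedom. Replicate 2 of K655/657R at 30 min was left out, as in the study. The test covered genes that averaged 1 TPM or more over those libraries. Calls needed an adjusted p (Benjamini-Hochberg, over all of them) below 0.05 together with a change of 1.5-fold or more. Differences between strains are interaction contrasts of the same fit, and all strains' responses share the estimate of the spread. The limma step was tested on simulated data. No pair of libraries was identical.

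Symbols came from the yeast gene table for 5110 transcripts and from the reference for 840 more, and sequences and positions from RefSeq's R64 genome, which is the build of the transcriptome. Shares of 31-base words shared between transcripts were computed from 5929 reference transcripts. Other calculations used Python 3.11.15, pandas 2.3.3, numpy 2.4.6, Biopython 1.88 and matplotlib 3.10.9.

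The genes named are, for calls averaging 10 TPM or more whose media do not overlap, the 15 that rose most and the 15 that fell most, up to 6 members with the largest changes in each list described, genes tied to the carbon source by their known role, SFP1 and the study's RT-qPCR targets, and the 10 largest differences from WT in each direction. The members and lists were chosen with earlier results of these data known. Alternatives were other pseudocounts, filters, scalings and fold limits, all 24 libraries, only the libraries compared, a replicate block, and leaving out each library.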

Additional observations from a re-analysis of the deposited data

Results flagged for a closer look

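The raffinose response differed between K655/657Q and WT for 1275 genes and between K655/657Q and K655/657R for 1315 genes, by limma's test of the difference between responses over all genes. Each named gene below has a response in K655/657Q that differed from that in WT by the same test, with 2 libraries per strain and medium, and the value is the log2 response of K655/657Q minus that of WT. They were chosen as the largest differences, so their size is a description.

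Among genes with a higher response in K655/657Q, the vitamin B6 genes SNZ1 and SNO1, which are neighbours and share a promoter region, differed by 3.31 and 2.90. Genes of glycine cleavage and of amino acid breakdown followed, with GCV2 at 2.64, GCV1 at 2.35, SRY1 at 2.52 and ARO10 at 2.42. The glycolytic gene TDH1 differed by 2.57, MNC1 by 2.54, the reading frame YPR145C-A by 2.44 and the secreted glycoprotein gene YGP1 by 2.36.

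Among genes with a lower response in K655/657Q, the iron uptake genes FET3, SIT1 and FTR1 differed by -3.41, -3.19 and -2.34. The RNA helicase gene DBP2 was at -2.43, the nucleolar protein gene NSR1 at -2.26 and the reading frame YGR160W at -2.38. BSC1 and its neighbour PRM7 were at -2.81 and -2.79. The mating agglutinin gene AGA1 was at -2.24 and the wall mannoprotein gene TIR1 at -2.13. All 20 named genes kept the sign of the difference with TPM as deposited, upper quartile scaling and ACT1 scaling.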

How the results depend on the processing

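The count of genes called in K655/657Q, 1308, was 3323 with no limit on the fold change and 437 with a limit of 2. It lay between 945 (pseudocount 5) and 1461 (TPM as deposited) under the other settings, was 1236 to 1357 with 1 library left out, and was again 1308 with a replicate block. The deviations of same-numbered raffinose and YPD libraries correlated at -0.094 over 4972 genes. With 2 pairs only, this cannot tell whether the replicate numbers pair the samples. The 1275 genes with a response unlike WT became 2791 with ACT1 scaling, 2363 with no fold limit, 470 with a limit of 2, 1166 to 1389 with 1 library left out and 1286 with the block. The 1315 genes with a response unlike K655/657R became 2444, 2385 and 470 under the same 3 settings, 1258 to 1359 with 1 library left out and 1324 with the block. The RiBi median of -0.07 was 0.047 with ACT1 scaling, 0.12 with TPM as deposited, -0.026 with upper quartile scaling, -0.088 to -0.035 with 1 library left out and -0.07 with the block. The RP median of -0.69 was -0.56, -0.49 and -0.64 under those 3 scalings, -0.73 to -0.66 with 1 library left out and -0.69 with the block. ACT1 itself changed between the media, less in K655/657Q than in WT, and scaling to it moves all genes with it. Of 334 named genes none was called in the opposite direction under any setting tried, and of the 246 called 185 were called under every one. Small changes could still change sign with the scaling, as that of ACT1 did, from -0.13 to 0.077 with TPM as deposited. TPM as deposited lost 35 calls and added 22, pseudocount 5 lost 31 and added 1, and ACT1 scaling lost 28 and added 12. With 2 libraries a medium and no read counts, small changes of transcripts with few TPM cannot be resolved.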

Other observations

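Sulfur, nitrogen, chaperone and cell cycle genes included further changes in K655/657Q. Of 28 sulfur and methionine genes, 6 were called up and 2 down between raffinose and YPD (median 0.03). MET17, which makes homocysteine from sulfide, had 134 and 126 scaled TPM in raffinose, against 55.9 and 54.9 in YPD (1.21 ± 0.12; limma, adjusted p = 4.5e-07), against a change of -0.29 in WT, and a gene that overlaps it on the other strand could share reads if strand was not used in counting. Of 27 genes repressed by good nitrogen sources, 9 were called up and 1 down (median 0.14). Of 7 ribosome-associated chaperone genes, 2 were called down and 0 up, and 0 were higher at an unadjusted limma p under 0.05. They were EGD1, of the nascent polypeptide complex (399 and 411 in raffinose, against 625 and 637 in YPD; -0.64 ± 0.07), and SSB1, an Hsp70 on the ribosome (-0.63 ± 0.07), which shares 57.8% of its 31-base words with other transcripts. With ACT1 scaling and with TPM as deposited neither was called, and with upper quartile scaling only EGD1 was.

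Of 14 G1 cyclin and related genes, 2 were called up and 0 down, near the 11.5% of all genes called up. At an unadjusted limma p under 0.05, 0 were lower. The count called up was 4 with ACT1 scaling, 4 with upper quartile scaling and 6 with TPM as deposited. PCL1, a cyclin of the Pho85 kinase, had 11.2 and 12.6 scaled TPM in raffinose, against 4.72 and 6.46 in YPD (0.98 ± 0.14), and CLN1, a cyclin of Cdc28, 17.9 and 17.4 in raffinose, against 8.06 and 12 in YPD (0.78 ± 0.13). The CLN1 call was lost without YPD replicate 1, at 0.52. Of 11 histone genes, HTB1, for H2B, was the only one called, with 1109 and 1115 in raffinose, against 1618 and 1978 in YPD (-0.69 ± 0.08), and it was under the fold limit, at -0.54, without YPD replicate 2. With ACT1 scaling and with TPM as deposited the list had 0 genes called down and 1 called up. MGA2, an activator of OLE1, rose by 1.15 ± 0.09 and ACC1, which starts fatty acid synthesis, by 1.00 ± 0.18.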
